A study of Mus musculus with 10 samples.

Results

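The small leucine-rich proteoglycans described here were Dcn (decorin), Bgn (biglycan), Aspn (asporin), Lum (lumican), Fmod (fibromodulin), Prelp, Kera (keratocan), Epyc (epiphycan), Ogn (osteoglycin) and Optc (opticin). They were chosen by gene symbol, and each matched 1 row, giving 10 of the 54532 genes in the expression table. RNA-seq of whole spleen was compared between 5 DUSP6 KO mice (allele Dusp6tm1Jmol) and 5 WT C57BL/6J mice, with 1 library per spleen. All 10 mice, 8 to 12 weeks old, had KRN serum-induced arthritis (KSIA): 100 µL of pooled serum from arthritic KRN x NOD F1 mice was injected into the peritoneum on days 0 and 2, and spleens were taken on day 9. No uninjected spleens were analysed here, so every value below belongs to arthritic mice. Both strains were purchased and were not stated to be littermates, the knockout was not limited to a tissue, and the sample labels call its genotype a knockdown. Libraries are named by group and mouse number.

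Small leucine-rich proteoglycans are secreted proteins with a core of leucine-rich repeats that binds collagen. Most carry chondroitin, dermatan or keratan sulfate chains, and together they set the spacing and width of collagen fibrils. Some also bind TGF-β, and soluble decorin and biglycan are known ligands of Toll-like receptors on macrophages. In the spleen they are products of stromal cells of the capsule, trabeculae and vessels. DUSP6, the phosphatase deleted in the knockout, removes phosphate from the kinases ERK1 and ERK2.

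The targeted gene matched the labels. Dusp6 averaged 0.440 ± 0.117 FPKM in the knockout spleens against 19.4 ± 2.81 in WT (SD, n = 5 each). As deposited, FPKM is the number of fragments scaled to gene length and by a factor for each library. Libraries held 14990474 to 19822673 reads assigned to genes, and spleen markers such as Cd79a, a B cell receptor subunit, were high in all of them (246 to 629 FPKM). Marker genes of neighbouring tissue stood out in 3 libraries. WT 67 held 15110 FPKM summed over 9 exocrine pancreas genes, WT 65 held 191 and the others 9.55 to 26.2. The sum of 6 adipocyte genes was 46.8 FPKM in WT 67 and 30.8 in DUSP6 KO 73, against at most 0.922 elsewhere. Main results are given below with and without these 3 libraries.

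The genes lie in clusters (coordinates of GRCm38). Chromosome 1 holds Optc, Prelp and Fmod within 151 kb. Chromosome 10 holds Dcn, Lum, Kera and Epyc within 203 kb, on the same chromosome as Dusp6, whose start is 1.78, 1.70, 1.66 and 1.62 Mb away from theirs. Chromosome 13 holds Aspn and Ogn, together with the related genes Ecm2 and Omd, within 120 kb. Bgn is on the X chromosome.

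Promoter sequence is shown for the members with an unadjusted p under 0.05 between the groups, where a sequence was at hand. RefSeq promoter windows of GRCm38.p6, from 250 bases before to 50 bases after the transcript start, matched 8 of the 10 members, and not Dcn or Lum. They were searched on both strands for TGANTCA (AP-1), CNGGAAG (ETS, the family that includes targets of ERK) and TATAAA (core of the TATA box), and matches to different words did not overlap. Among all 32851 windows of this length, 7.81% held the first, 31.9% the second and 13.6% the third. The 250 bases before the start of Fmod (chr1:134037004-134037253, plus strand), Aspn (chr13:49544193-49544442, plus strand) and Bgn (chrX:73483351-73483600, plus strand) are given 5′ to 3′, with matches in capitals:
Fmod: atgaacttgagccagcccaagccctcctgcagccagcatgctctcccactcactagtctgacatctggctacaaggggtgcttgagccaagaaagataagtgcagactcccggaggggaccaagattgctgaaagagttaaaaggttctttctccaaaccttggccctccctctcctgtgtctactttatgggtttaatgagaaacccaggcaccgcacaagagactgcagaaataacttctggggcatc
Aspn: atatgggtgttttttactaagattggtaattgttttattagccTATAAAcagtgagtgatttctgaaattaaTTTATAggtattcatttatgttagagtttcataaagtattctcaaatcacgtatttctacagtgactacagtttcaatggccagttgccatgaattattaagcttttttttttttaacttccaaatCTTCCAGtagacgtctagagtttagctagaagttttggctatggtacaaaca
Bgn: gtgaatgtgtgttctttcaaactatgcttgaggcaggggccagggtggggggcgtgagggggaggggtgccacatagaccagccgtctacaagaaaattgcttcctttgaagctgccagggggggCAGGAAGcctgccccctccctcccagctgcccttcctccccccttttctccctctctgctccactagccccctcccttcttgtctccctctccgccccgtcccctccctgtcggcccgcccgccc
Aspn held 1 ETS word, beginning 52 bases before the start, and 2 TATA words, beginning 207 and 178 bases before it. Bgn held 1 ETS word, beginning 125 bases before the start. Fmod held none of the words, nor did Prelp, Optc, Kera or Epyc, and Ogn held 2 overlapping TATA words. No member window held the AP-1 word. The windows differed in composition, with 30.0% G and C in the 250 bases before Aspn, 51.2% before Fmod and 64.4% before Bgn. These matches describe the letters only, and no binding was measured.

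Lum and Fmod were lower in every DUSP6 KO spleen than in any WT spleen, with log2 fold changes of -1.57 and -1.38. The log2 fold change was -1.05 for Aspn and 0.41 for Bgn, the most abundant member. The 95% confidence intervals of Dcn, Ogn and Prelp included 0, Kera and Epyc were not detected, and Optc was seen almost only in DUSP6 KO. Fold changes are differences of mean log2(FPKM + 0.1), tested by limma across 21296 genes whose mean reached 0.1 FPKM, a filter passed by 7 of the 10 members. No member had an adjusted p (Benjamini-Hochberg over all genes tested) of 0.05 or less, a level reached by 15 genes, or 0.0704% of those tested. The paper, which tested read counts with DESeq2, listed Lum and Fmod as lower in the knockout after adjustment. Their calls thus differed between methods. Before adjustment, at a limma p under 0.05, 3 members were lower in the knockout (Lum, Fmod and Aspn; background 3.03% of genes) and 1 was higher (Bgn; background 2.62%). Of the 7, 2 had groups that did not overlap, both lower in DUSP6 KO, as did 0.563% of all genes tested. The members were picked with such values known, so these counts are a description.

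**Figure D1:**
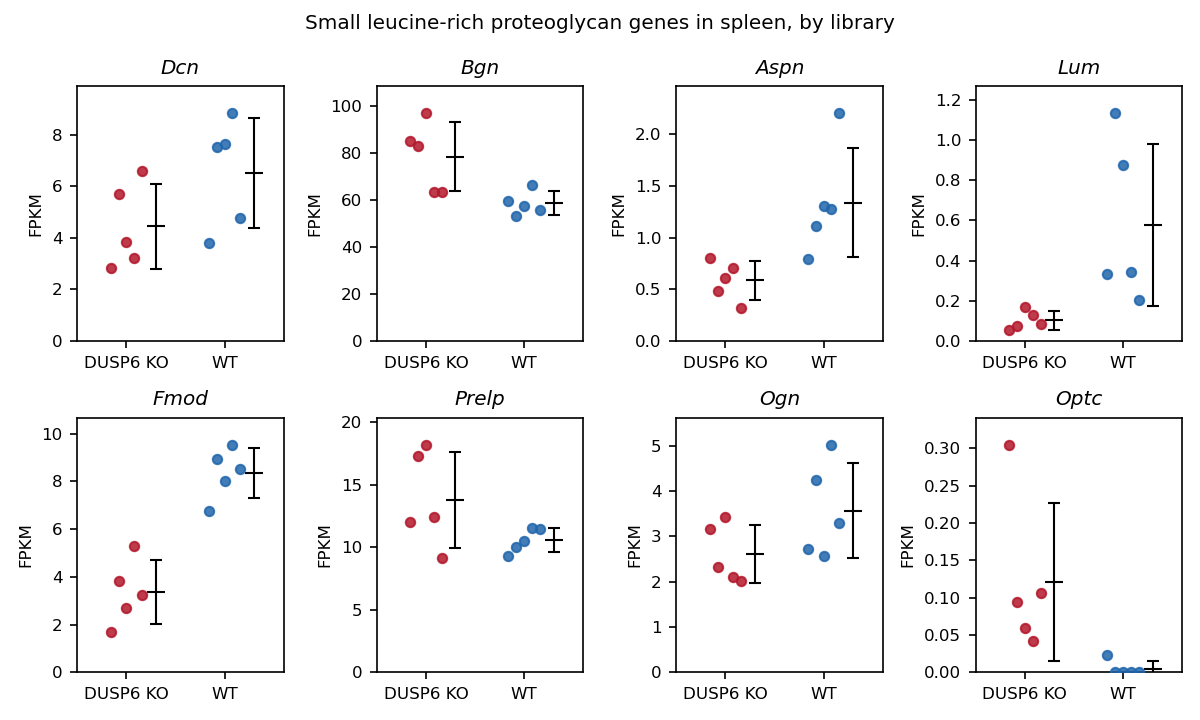
FPKM of the 8 detected members in each DUSP6 KO (red) and WT (blue) spleen, 1 point per library on linear axes from 0, with the mean and SD of 5 libraries beside the points. The DUSP6 KO points lie below all WT points for Lum and Fmod, above them for Optc, and overlap them for the other members.

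Among the class I members, which carry chondroitin or dermatan sulfate or, in asporin, an acidic stretch, Bgn was by far the most abundant. Bgn was at 63.5, 97.1, 63.7, 85.3 and 83.2 FPKM in DUSP6 KO 26, 21, 73, 01 and 03, and at 59.7, 53.1, 57.7, 66.7 and 55.9 FPKM in WT 65, 67, 73, 77 and 83. The 3 highest DUSP6 KO spleens were above all WT spleens, and the other two lay below WT 77. The means were 78.5 ± 14.6 and 58.6 ± 5.11 FPKM (SD, n = 5 each). The log2 difference was 0.41 (SE 0.13, 95% confidence interval 0.13 to 0.69, limma adjusted p = 0.62). A two-sided exact permutation test of the 5 against 5 FPKM values gave p = 0.024, where 0.0079 is the smallest that this design allows. With DUSP6 KO 73, WT 65 and WT 67 left out, the log2 difference was 0.44 (limma adjusted p = 0.73).

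Decorin, which binds collagen and TGF-β, had the opposite sign. Dcn was at 3.22, 3.86, 6.62, 2.82 and 5.71 FPKM in DUSP6 KO 26, 21, 73, 01 and 03, and at 3.81, 7.55, 7.67, 8.84 and 4.76 FPKM in WT 65, 67, 73, 77 and 83. The groups overlapped, since WT 65 was below 3 DUSP6 KO spleens. The means were 4.45 ± 1.64 and 6.52 ± 2.13 FPKM (SD, n = 5 each). The log2 difference was -0.55 (SE 0.29, 95% confidence interval -1.19 to 0.09, limma adjusted p = 0.94), and the exact permutation p was 0.13. DUSP6 KO 73 and WT 65, which held neighbouring tissue, were the highest knockout and the lowest WT value. Without these and WT 67 the log2 difference of Dcn was -0.85, past an unadjusted p of 0.05 but with a limma adjusted p = 0.73.

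Asporin, a collagen-binding relative that inhibits TGF-β signalling, was the third class I gene. Aspn was at 0.706, 0.612, 0.319, 0.804 and 0.487 FPKM in the DUSP6 KO spleens in the same order, and at 0.795, 1.11, 1.31, 1.28 and 2.20 FPKM in the WT spleens. The groups overlapped only by DUSP6 KO 01, which was slightly above WT 65, and the other 4 DUSP6 KO spleens were below all WT spleens. The means were 0.585 ± 0.190 and 1.34 ± 0.525 FPKM (SD, n = 5 each). The log2 difference was -1.05 (SE 0.29, 95% confidence interval -1.68 to -0.42, limma adjusted p = 0.50). The exact permutation p was 0.016, on 11 to 41 reads per DUSP6 KO library and 32 to 93 per WT library. Without the 3 libraries the log2 difference was -1.15 (limma adjusted p = 0.46). Aspn shares 7 exon bases with Cenpp on the other strand, and the strand setting of the counting was not given.

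Fibromodulin showed the clearest difference of the class II members, whose chains are mostly keratan sulfate. It binds collagen I and, with lumican, a shared site on the fibril. Fmod was at 5.28, 2.71, 3.26, 1.68 and 3.85 FPKM in DUSP6 KO 26, 21, 73, 01 and 03, and at 6.78, 8.92, 8.01, 9.53 and 8.52 FPKM in WT 65, 67, 73, 77 and 83. The groups did not overlap, and the highest DUSP6 KO spleen, 26, was below the lowest WT spleen, 65. The means were 3.36 ± 1.34 and 8.35 ± 1.04 FPKM (SD, n = 5 each). The log2 fold change was -1.38 (SE 0.25, 95% confidence interval -1.93 to -0.82, limma adjusted p = 0.19), and Fmod ranked 24 by p among the genes tested. The exact permutation p was 0.0079, the smallest possible. With limma voom on the whole reads behind the FPKM values (120 to 563 per library), the log2 fold change was -1.43 and the adjusted p 0.046, so Fmod lay near the threshold and its call depended on the model. Without the 3 libraries with neighbouring tissue the log2 difference was -1.45 (limma adjusted p = 0.46).

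Lumican, named for its role in corneal transparency, had the log2 fold change farthest from 0 among the tested members on this scale, and few reads. Lum was at 0.131, 0.168, 0.0836, 0.0566 and 0.0739 FPKM in the DUSP6 KO spleens, on 6, 8, 3, 3 and 3 reads. In the WT spleens it was at 0.334, 1.13, 0.876, 0.344 and 0.205 FPKM, on 14, 53, 37, 14 and 9 reads. All DUSP6 KO spleens were below all WT spleens, and the WT values spread over a range of their own, with WT 67 and 73 above the other 3. Counting error alone was wide at this depth: the exact Poisson 95% interval was 0.0938 to 0.389 FPKM in the lowest WT spleen, 83, and 0.0726 to 0.331 FPKM in the highest DUSP6 KO spleen, 21. The means were 0.103 ± 0.0459 and 0.579 ± 0.404 FPKM (SD, n = 5 each). The difference of mean log2(FPKM + 0.1) was -1.57 (SE 0.41, 95% confidence interval -2.47 to -0.66, limma adjusted p = 0.46). The exact permutation p was 0.0079. WT 67, the library with the strongest pancreas signal, had the highest Lum, and without the 3 libraries the log2 difference was -1.33 (limma adjusted p = 0.76). Because Lum is so low, its log2 value depends on the constant added: it was -0.48 with 1 and -2.20 with 0.01 added to FPKM.

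Prelp, a member that has a basic end and binds heparan sulfate chains, lies between Optc and Fmod. It was at 12.4, 18.2, 9.10, 11.98 and 17.2 FPKM in the DUSP6 KO spleens and at 9.32, 10.03, 10.5, 11.5 and 11.4 FPKM in the WT spleens. The DUSP6 KO values were the more spread, with 4 above all WT spleens and DUSP6 KO 73 below all of them. The log2 difference was 0.34 (SE 0.17, 95% confidence interval -0.05 to 0.73, limma adjusted p = 0.94), and the exact permutation p was 0.13. Without the 3 libraries, among them DUSP6 KO 73, it was 0.39, past an unadjusted p of 0.05 but with a limma adjusted p = 0.81. Prelp shares 350 exon bases with the antisense gene Gm15851, which had at most 1 read in any library.

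Kera, a corneal keratan sulfate proteoglycan, had 0 reads in all 10 libraries. A count of 0 allows up to 3 reads, which is 0.0607 to 0.0898 FPKM by library. Epyc, a class III member of growth plate cartilage, also had 0 reads in all 10, which allows 0.0541 to 0.0799 FPKM. Both lie beside Lum and Dcn on chromosome 10.

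The other class III members were detected. Ogn, known as mimecan from cornea and bone, was at 2.11, 3.43, 2.02, 3.17 and 2.33 FPKM in the DUSP6 KO spleens and at 2.71, 4.25, 2.58, 5.02 and 3.28 FPKM in the WT spleens. The groups overlapped, with 3 DUSP6 KO spleens below all WT spleens and WT 67 and 77 above all DUSP6 KO spleens. The log2 difference was -0.42 (SE 0.22, 95% confidence interval -0.90 to 0.06, limma adjusted p = 0.94), and the exact permutation p was 0.13. Without the 3 libraries it was -0.36 (limma adjusted p = 0.90).

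Opticin is a protein of the vitreous of the eye. Optc had 2, 3, 4, 17 and 4 reads in DUSP6 KO 26, 21, 73, 01 and 03, and 1 read in WT 65 and 0 in the other 4 WT spleens. In FPKM the DUSP6 KO spleens were at 0.0416, 0.0599, 0.106, 0.305 and 0.0936, and WT 65 was at 0.0227. Every DUSP6 KO spleen was above every WT spleen, as for 0.422% of the 30130 genes with a read. The summed reads, 30 against 1, gave a ratio of 29.1 with an exact 95% interval of 4.83 to 1185, which covers counting error only. Without DUSP6 KO 01, which held 17 of the 30, the ratio was 16.4 (2.46 to 697). Optc was below the filter on low values. In a fit with no filter its log2 difference was 0.98 (limma adjusted p = 0.65), and the exact permutation p was 0.0079. Its start lies 2.31 kb beyond the end of Prelp, on the same strand.

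**Figure D2:**
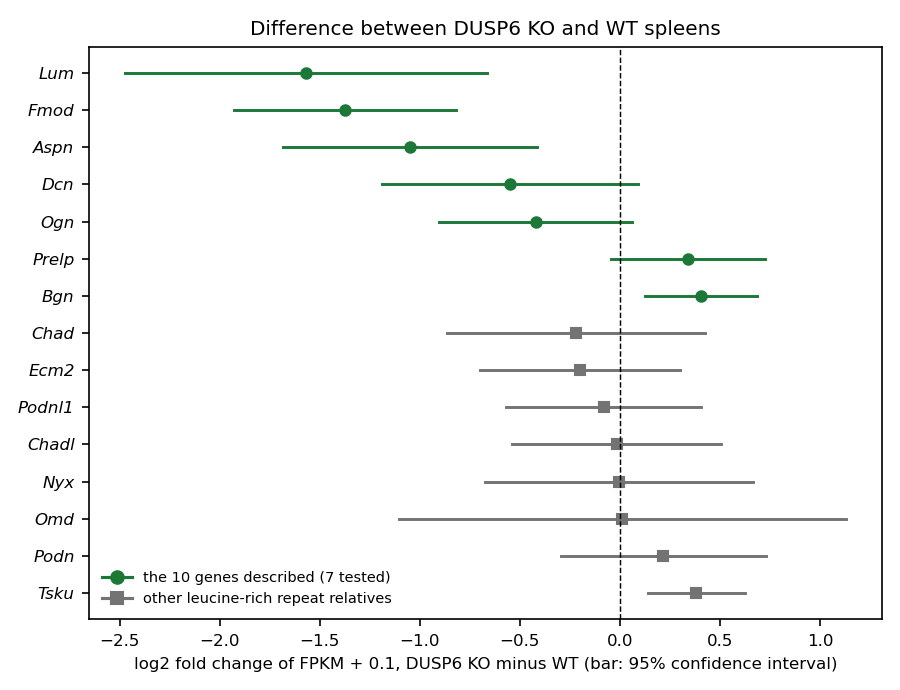
Log2 fold change of FPKM + 0.1, DUSP6 KO minus WT, with 95% confidence intervals (limma, n = 5 per group), for the 7 tested members (green circles) and 8 other genes of leucine-rich repeat matrix proteins (grey squares). The intervals of Lum, Fmod and Aspn lie below 0 and those of Bgn and Tsku above 0.

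FPKM is per length of gene, so members can be ordered by it, but the order of close members depends on the annotated lengths. These were 5838 bases for Dcn and 3306 for Fmod, and the lengths of the transcripts present were not measured. In WT spleens the means ran from Bgn (58.6 FPKM) through Prelp (10.6), Fmod (8.35), Dcn (6.52), Ogn (3.57), Aspn (1.34) and Lum (0.579) to Optc (0.00454). The ranges of neighbours over libraries were apart between Bgn and Prelp, Ogn and Aspn, and Lum and Optc, and overlapped elsewhere, although Prelp exceeded Fmod, and Fmod exceeded Dcn, in each of the 5 WT spleens. In DUSP6 KO spleens the order was Bgn (78.5 FPKM), Prelp (13.8), Dcn (4.45), Fmod (3.36), Ogn (2.61), Aspn (0.585), Optc (0.121) and Lum (0.103). Fmod thus stood above Dcn in WT means of FPKM and below it in DUSP6 KO means, where 4 of 5 spleens had more Dcn than Fmod. In summed reads, not divided by length, Dcn was above Fmod in both groups (3349 against 2432 in WT, 2265 against 989 in DUSP6 KO). The summed level of the 10 members was 104 ± 17.3 FPKM in the knockout against 89.5 ± 7.86 in WT (SD, n = 5 each), and Bgn made up 61.7% to 80.4% of it.

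Ratios within a library, taken as differences of log2(FPKM + 0.1), set members side by side. Its scaling cancels in them except for the part of the added 0.1. The log2 ratio of Fmod to Prelp, both on chromosome 1, was -2.05 ± 0.71 in DUSP6 KO and -0.34 ± 0.12 in WT (SD, n = 5 each), and it ranged from -2.77 to -1.21 and from -0.45 to -0.17. The log2 ratio of Dcn to Bgn, the closest relatives in sequence, was -4.17 ± 0.64 and -3.21 ± 0.50. Both pairs were picked after the values were seen and carry no test.

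Correlations between members after removing group means describe which genes varied together among the 10 libraries, which also share depth and dissection. Over the 21 pairs of tested members, r of log2(FPKM + 0.1) ran from -0.50 (Bgn with Fmod) to 0.72 (Bgn with Prelp), with a median of 0.07. Only Bgn with Prelp and Bgn with Ogn (0.62) were above 0.5. Lum and Dcn, neighbours on chromosome 10, had r = 0.33, and Lum and Fmod, the tested members that did not overlap between groups, had r = 0.17. Among genes whose mean reached 1 FPKM, those most like Lum were Gm27343 (r = 0.95), Gm6665, Zfp119b, Traj38 and Borcs8. Those most like Fmod were Upf3a (r = 0.89), Cyp21a1, Rgl3, BC031181 and Ccdc92. For Dcn they were Ogfod3 (r = 0.92), 9530068E07Rik, Gm10156, Prdx5 and Gm12251, and for Bgn they were Dock1 (r = 0.97), Pam, Parva, Pls3 and Bace1. With 10 libraries and 13421 or 13422 genes searched for each member, such values are a description only.

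Lum and Dcn lie within 2 Mb of Dusp6, so the genes in that window were compared as well. Of 74 genes there, 32 had a read and 19 were tested. Dusp6, the deleted gene, and Lum were lower at an unadjusted p under 0.05 (background 3.03% of genes lower and 2.62% higher). Dusp6 alone had an adjusted p of 0.05 or less. The 16 tested genes other than Dusp6, Lum and Dcn had log2 fold changes of -0.30 to 1.27 with a median of 0.05, and the smallest limma p among them was 0.099. This window counted 4 genes at an unadjusted p under 0.05 without DUSP6 KO 73, and also without WT 67. Dusp6 was among them each time. The part of the chromosomal position in the Lum value was not tested.

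**Figure D3:**
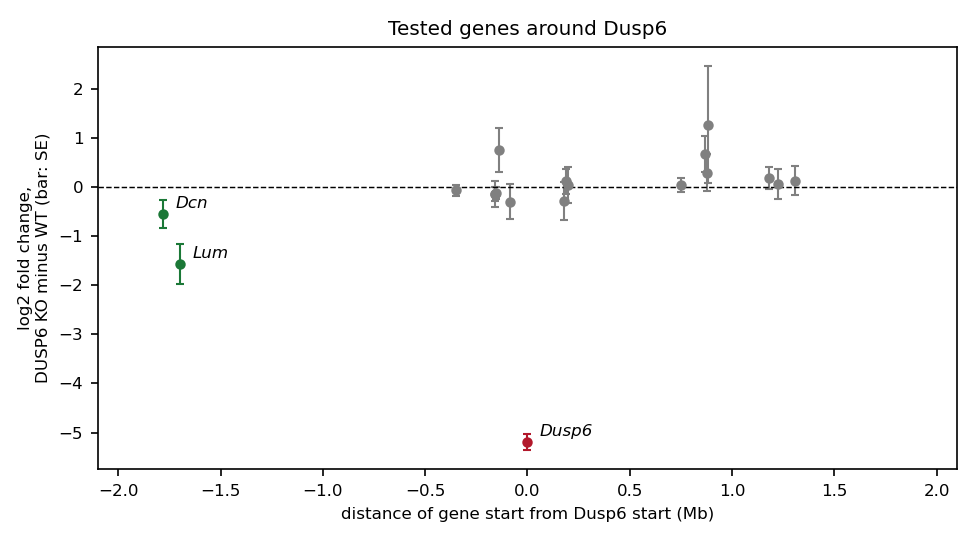
Log2 fold change of FPKM + 0.1, DUSP6 KO minus WT, with its SE (bars) for the 19 tested genes by the distance of their start from that of Dusp6 in Mb. Dusp6 (red) is at -5.19, Lum and Dcn (green) are at -1.57 and -0.55, and the other 16 genes (grey) range from -0.30 to 1.27.

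The other proteoglycan genes were compared by list, and the matrix proteoglycans without leucine-rich repeats held the most calls at an unadjusted p under 0.05. Of 8 relatives with leucine-rich repeats (Omd, Ecm2, Chad, Chadl, Nyx, Tsku, Podn and Podnl1), all tested, Tsku was higher at an unadjusted p under 0.05 (background 2.62% of genes). The median log2 fold change of the 8 was -0.01, beside -0.005 over all genes tested. Tsku, the secreted protein tsukushi, which binds several growth factors, averaged 3.62 ± 0.314 FPKM in the knockout against 2.77 ± 0.324 in WT (log2 difference 0.38, limma adjusted p = 0.56, exact permutation p = 0.016). Omd and Ecm2, on either side of Aspn, differed by 0.01 and -0.20 on the log2 scale (exact permutation p = 0.76 and 0.29).

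Of 16 matrix proteoglycan genes without leucine-rich repeats, 9 were tested. Of these, 3 were lower in the knockout at an unadjusted p under 0.05 (background 3.03% of genes). The median log2 fold change of the 9 was -0.12. Vcan, the large hyaluronan-binding proteoglycan versican, averaged 0.159 ± 0.114 FPKM in the knockout against 0.588 ± 0.0710 in WT (SD, n = 5 each), with no overlap (background 0.563% of genes). Its log2 difference was -1.50 (limma adjusted p = 0.26), and limma voom gave an adjusted p of 0.024. The paper also listed Vcan as lower in the knockout after adjustment. Srgn, the granule proteoglycan serglycin of blood cells, differed by -0.28 (exact permutation p = 0.048), and Prg4, the lubricant lubricin, by -0.67 (exact permutation p = 0.048). Both calls held in 13 alternatives, of 22 for Srgn and 21 for Prg4, and were lost without the 3 libraries with neighbouring tissue, where the log2 differences were -0.21 and -0.66.

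None of the 12 tested cell surface proteoglycans of 13, and none of the 25 tested chain synthesis enzymes of 27, had an unadjusted p under 0.05 in limma; their medians were 0.19 and -0.02. The most abundant of each, the syndecan Sdc3 and the linker enzyme gene B3gat3, differed by 0.22 (SE 0.12) and -0.15 (SE 0.10) on the log2 scale.

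Few binding partners and processing enzymes passed an unadjusted p of 0.05 (background 2.62% of genes higher and 3.03% lower). Those that did were higher in DUSP6 KO. Of 12 tested fibrillar and associated collagen genes of 14, Col14a1, a collagen on the fibril surface, was higher by 0.45 (exact permutation p = 0.040), and the median was 0.24. Col1a1, the main fibrillar collagen chain, averaged 15.7 ± 4.12 FPKM in the knockout against 12.6 ± 2.04 in WT (SD, n = 5 each; exact permutation p = 0.17). Of 19 growth factor and receptor partners, P2rx7, an ATP-gated channel that biglycan is known to engage on macrophages, was higher by 0.26 with no overlap (background 0.549% of genes; limma adjusted p = 0.71), and the median was 0.02. Of 11 tested processing and degrading enzymes of 13, Mmp2, a gelatinase, was higher by 0.66 (exact permutation p = 0.016) and Bmp1, which cleaves the propeptides of procollagen and biglycan, by 0.32 with no overlap (exact permutation p = 0.0079), and the median was 0.23. The calls of Col14a1 and Bmp1 were lost without the 3 libraries with neighbouring tissue, at log2 differences of 0.36 and 0.24. In limma, 0 of the genes named here reached an adjusted p of 0.05.

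In whole spleen, fewer cells of a type and less RNA per cell cannot be told apart, so markers of the stromal cells that make these proteins were set beside the members. Summed over 9 fibroblast and reticular cell genes, the level was 157 to 270 FPKM in DUSP6 KO and 163 to 226 FPKM in WT, and no gene of the list was at 0 in all libraries. Most of that sum was Cxcl13, a B cell chemokine of follicular stroma (144 FPKM on average in the knockout, 130 in WT). Thy1 was the next largest part (32.1 and 31.9 FPKM), so the sum mainly followed Cxcl13 and Thy1 and says little of the other genes. Of the 9, 5 had positive and 4 negative log2 differences, with a median of 0.14. The negative ones were Pdpn at -0.99 (exact permutation p = 0.23), Pi16 at -0.45 (exact permutation p = 0.17), Cd34 at -0.11 and Thy1 at -0.03. Pdpn was low, at 0.324 FPKM on average in the knockout and 0.623 in WT. Pdgfrb, a receptor of fibroblasts and mural cells, was higher in DUSP6 KO by 0.57 (exact permutation p = 0.016) and Dpt, the matrix protein dermatopontin, by 0.33 (exact permutation p = 0.056, limma unadjusted p under 0.05). The sum of 7 smooth muscle genes was 79.9 to 175 FPKM and 118 to 162 FPKM, with no gene past an unadjusted p of 0.05, and Acta2, the most abundant, differed by -0.12 (SE 0.21). The sum of 8 mesothelial genes of the splenic capsule was 2.71 to 5.96 FPKM in DUSP6 KO and 3.76 to 15.2 FPKM in WT (exact permutation p = 0.071). Of the 8, 7 had a lower mean in DUSP6 KO and the median log2 difference was -1.18. The other, Wt1, was the most abundant and made up much of the DUSP6 KO sum. It averaged 2.86 FPKM in DUSP6 KO and 2.61 in WT (log2 difference 0.15). Only Krt19, a keratin of epithelia and mesothelium, had an unadjusted p under 0.05 in limma (log2 difference -1.45, exact permutation p = 0.087). Krt19 kept that call in 9 of 21 alternatives, and its log2 difference was -0.99 without WT 77 and ranged from -2.92 to -0.37 over other settings. WT 77, with the highest mesothelial sum, had the highest Fmod (9.53 FPKM), Dcn (8.84) and Ogn (5.02) of all libraries, and 0.344 FPKM of Lum. WT 83, with the lowest mesothelial sum of the WT spleens, had the lowest Lum (0.205 FPKM) and the highest Aspn (2.20) among them. WT 67, with the highest Lum, had a mesothelial sum of 7.05 FPKM. The part of the mesothelial level in the members' values was not tested.

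Most tested markers of other tissues had negative log2 differences. Adipocyte genes (5 of 6 tested), exocrine pancreas genes (9 of 9) and cartilage and tendon genes (3 of 6) had none at an unadjusted p under 0.05 in limma. Their fold changes were positive for 1 of 5, 0 of 9 and 0 of 3 genes, with medians of -0.19, -3.99 and -0.32, and the pancreas signal came mainly from WT 67. The most abundant of each were Cfd, Ctrb1 and Cilp, with log2 differences of -0.95 (SE 1.92), -5.04 (SE 2.78) and -0.33 (SE 0.26). Tnmd, a tendon marker, had 0 reads in all libraries. Of 10 spleen markers, Tlx1, a transcription factor of splenic stroma, was higher in DUSP6 KO by 0.58 (limma adjusted p = 0.46, exact permutation p = 0.016).

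**Figure D4:**
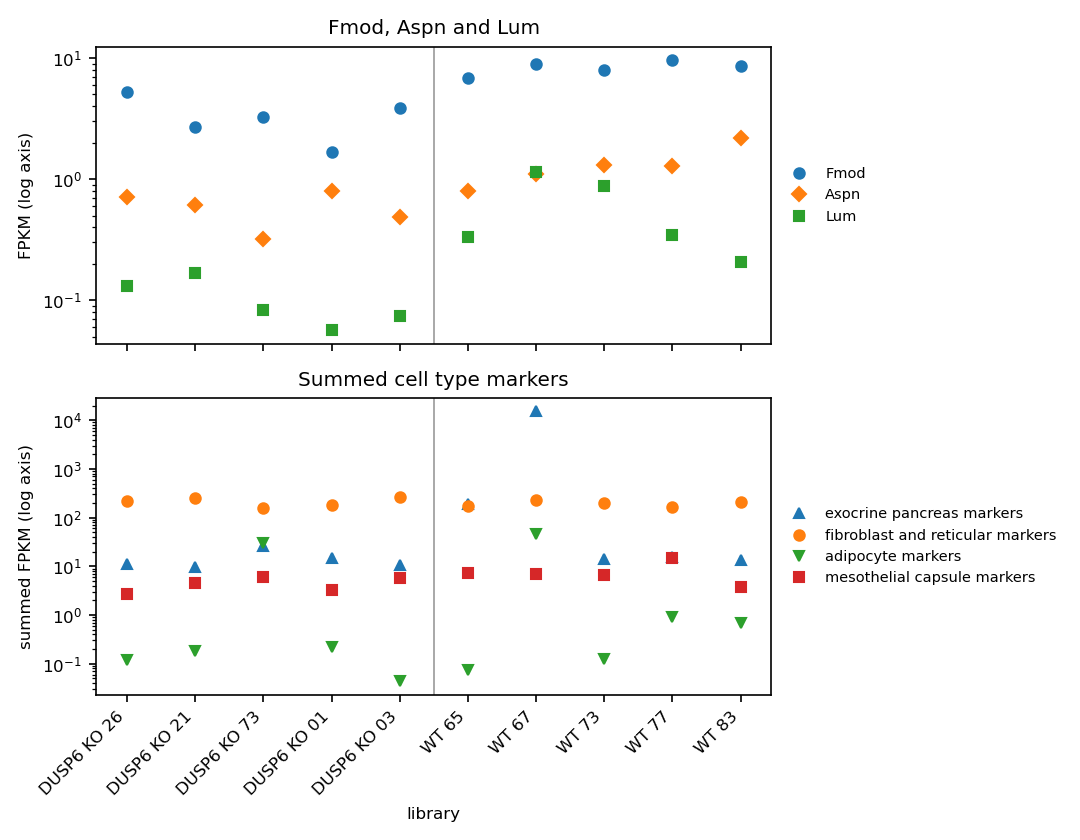
FPKM of Fmod, Aspn and Lum (upper panel) and the summed FPKM of 4 marker lists (lower panel) in each library, on log axes, with DUSP6 KO left and WT right of the grey line. Fmod and Lum separate the groups, the pancreas sum peaks in WT 67 at 15110 FPKM, and the fibroblast sum, mostly Cxcl13, stays between 157 and 270 FPKM.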

How the data were processed

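Poly-A RNA-seq libraries of 10 spleens were prepared and sequenced in pairs by a provider. The authors used HISAT2 for alignment and featureCounts 1.5.0-p3 for counting, and deposited FPKM values made from each count and the length of the gene. The strand setting was not given in the sources used here, and the label names a human build, whereas gene IDs and coordinates are those of mouse GRCm38. FPKM times gene length came out as whole reads (within 0.001 read) for 100% of values, and these gave the depths. The factor of each library did not simply follow this depth. For Lum, 3 reads gave 0.0836 FPKM in DUSP6 KO 73 (15434643 reads) and 0.0739 in DUSP6 KO 03 (14990474 reads).

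Log2(FPKM + 0.1) was tested with limma 3.58.1 (R 4.3.3; eBayes with trend) over the 21296 genes whose mean reached 0.1 FPKM. P-values were adjusted by Benjamini-Hochberg and called at 0.05. Single genes were also tested by two-sided exact permutation (252 arrangements), and the fit was tested on simulated data. The members and lists were chosen with earlier results of these data known. Named were all members, genes of other lists or within 2 Mb of Dusp6 with an unadjusted p under 0.05 (at most 5 per list, otherwise the most abundant), and the 5 genes most like each of Lum, Fmod, Dcn and Bgn. Omd, Ecm2, Col1a1, Cd79a, Tnmd, Pdpn, Pi16, Cd34 and Thy1 were named after their values were seen. Ccl19 and Ccl21a each matched several rows and were left out, and Ccn2 was read as Ctgf. Intervals and floors cover counting error only. Alternatives included other pseudocounts, filters, normalizations and models, and leaving out libraries.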

Additional observations from a re-analysis of the deposited data

Results flagged for a closer look

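Of 16 sets of 5 libraries examined (8 detected members in each group), 2 held a library whose gap to its nearest neighbour exceeded Dixon's 95% critical value, where chance gives about 1 in 20. Both concerned Optc. DUSP6 KO 01 was at 0.305 FPKM on 17 reads, and the other 4 DUSP6 KO spleens had 2 to 4 reads. WT 65 was at 0.0227 FPKM on 1 read, the only WT library with any. With the other 4 tied at 0, any single read passes that value, so the chance rate does not apply to it.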

How the results depend on the processing

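No paired analysis was made, since no pairing of mice between the purchased strains was stated. Mouse number 73 occurs in both groups but is not stated to mark a pair. Over 21 to 22 alternatives per gene, the log2 fold change of the 7 tested members did not change sign, and Lum, Fmod, Aspn and Bgn had an unadjusted limma p under 0.05 in each alternative that tested them. Limma voom on recovered reads gave 1 member an adjusted p of 0.05 or less, Fmod (log2 fold change -1.43, adjusted p = 0.046; 0.046 to 0.46 over all alternatives). With a minimum mean of 1 FPKM, which leaves out Lum and Aspn, 1 member was lower, and 349 genes were higher and 409 lower, before adjustment. After it, 4 genes were lower. Within 2 Mb of Dusp6, 1 gene counted, Dusp6 itself. With no filter, which adds Optc, 2 members were higher. Array weights gave 2 higher members and 13 higher genes after adjustment. Leaving out together DUSP6 KO 73, WT 65 and WT 67, chosen after seeing the data, gave 2 higher members. It also gave 4 genes within 2 Mb of Dusp6, Dusp6 among them. For these and for the weights the cause was not tested. Leaving out 1 library at a time, members higher numbered 1 to 2 and lower 3 to 4, with 0 after adjustment. Genes after adjustment numbered 6 (without WT 77) to 21 (without DUSP6 KO 21) higher and 4 (without WT 83) to 13 (without DUSP6 KO 21) lower, and before it 486 to 643 higher and 489 to 934 lower. The 7 lists of matrix, chain and partner genes gave 4 (without WT 65) to 14 (without DUSP6 KO 26) higher and 1 (without DUSP6 KO 01) to 6 (without DUSP6 KO 21) lower. The window around Dusp6, with Dusp6 itself counted, gave 2 to 4. Log2 fold changes ran from -1.80 to -1.30 for Lum, -1.56 to -1.16 for Fmod, -1.20 to -0.86 for Aspn, -0.72 to -0.41 for Dcn, -0.53 to -0.29 for Ogn, 0.23 to 0.48 for Prelp and 0.32 to 0.48 for Bgn. Depth limited Lum and Optc most, with at most 8 reads of Lum per DUSP6 KO library.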
